A study of Mus musculus with 28 samples.

Results

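mmu-miR-5099 is 1 of the 569 mouse miRNA rows of an array study of early osteoarthritis, and it is described here across tissues, operations and weeks. The row was chosen by its own values in these arrays, a rise in cartilage late after joint surgery, so its levels and differences are given as a description with no test. Adult male wild-type C57BL6 mice, 10 to 12 weeks old, had both knees operated. In destabilization of the medial meniscus (DMM) the ligament that ties the medial meniscus to the tibia was cut, which loosens the joint and leads to osteoarthritis. In the sham operation the same ligament was exposed and left whole. Cartilage and the subchondral bone under it were cut from the medial tibial plateau by laser microdissection 1 or 6 weeks later. The 28 arrays, of Agilent's mouse miRNA design release 21 and read in 1 colour, fell into 8 groups. The cartilage groups were DMM at 6 weeks, sham at 6 weeks, DMM at 1 week and sham at 1 week, with 3 arrays each, and every cartilage array held a pool of 3 mice. The bone groups were the same 4 combinations, with 4 arrays each of single mice.

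miRNAs are short RNAs that are cut from the stem of a folded precursor, the hairpin, and guide Argonaute proteins to partly matching sites in messenger RNAs, which are then translated less or degraded. In cartilage the miR-140 gene, which lies within Wwp2, is the best known example: its loss in mice disturbs skeletal growth and speeds the breakdown of joint cartilage. Cartilage in osteoarthritis loses its proteoglycan and collagen network while the bone under it is remodelled.

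The hairpin of Mir5099 is shown because its letters bear on the comparison with a list of miRNAs with large DMM differences in cartilage. It lies at chr12:36816205-36816278 on the plus strand (RefSeq sequence, build GRCm38.p6), and overlaps no gene of the RefSeq table. It is printed 5′ to 3′, with the bases that pair in the structure of lowest predicted free energy in capitals.
Mir5099 hairpin: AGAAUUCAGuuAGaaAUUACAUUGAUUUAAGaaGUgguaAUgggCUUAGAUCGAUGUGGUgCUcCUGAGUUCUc
Of its 74 bases 58 were paired in that structure, with a predicted free energy of -26.60 kcal/mol, and 37.8% were G or C.

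The deposited values were log2 signals. A value was present on every cartilage array for 438 rows and on every bone array for 490 rows, with 359 rows in both. The median of an array lay between 6.26 and 6.32 for cartilage and between 6.17 and 6.39 for bone, and the lowest value on an array was 4.72 to 5.13 in cartilage and 4.08 to 4.79 in bone. Pearson's r between arrays of a group had a median of 0.987 in cartilage and 0.951 in bone, and no pair of arrays was identical. The tissue field of the cartilage samples names subchondral bone while their source field names cartilage, and the source field was followed. miR-140-3p, the abundant cartilage miRNA, had array values of 13.1 to 13.7 over the cartilage groups and 8.94 to 9.98 over the bone groups.

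In cartilage, miR-5099 was highest 6 weeks after DMM. Its log2 signal was 7.44, 7.37 and 7.13 in the 3 DMM pools at 6 weeks (replicates 1, 2 and 3), against 5.91, 5.78 and 5.83 in the sham pools at 6 weeks. All 3 DMM pools at 6 weeks lay above every other cartilage array, and the gap to the sham pools was several times the range within either group. At 1 week the signal was 6.54, 6.49 and 6.35 in DMM pools, against 6.01, 5.80 and 6.33 in sham pools. These groups were separate only narrowly, since the lowest DMM pool at 6.35 sat just above the highest sham pool at 6.33. RNA was taken from whole pieces of tissue, so a change in the share of cells that hold the miRNA and a change in its amount per cell cannot be told apart.

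**Figure D1:**
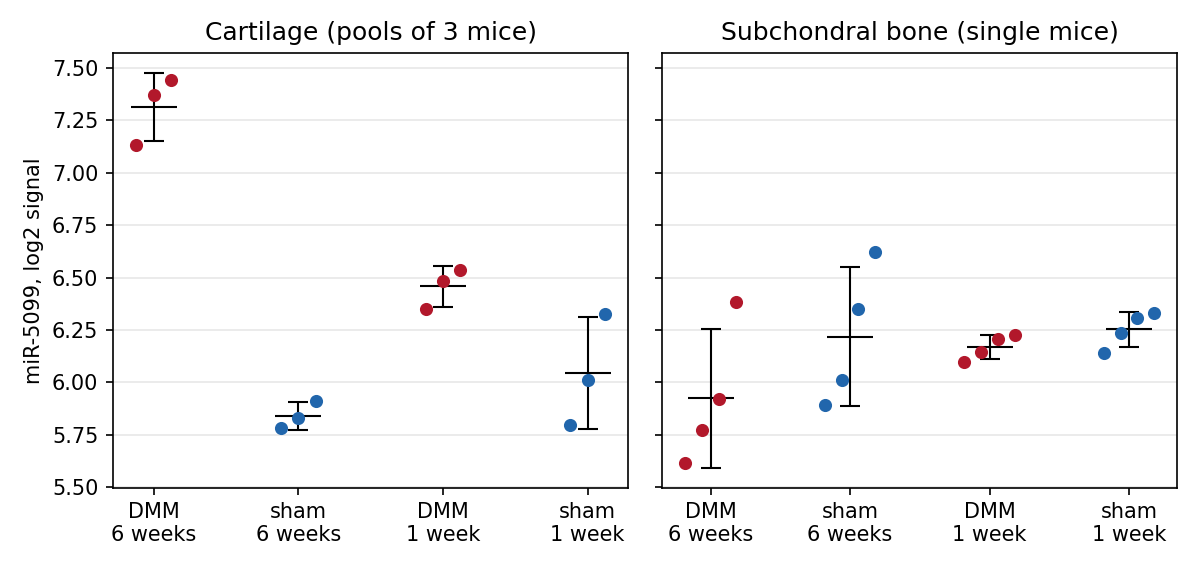
Log2 signal of miR-5099 on each array (points), by operation and week, with the group mean and SD (bars), in cartilage pools (left panel, n = 3 per group) and in subchondral bone of single mice (right panel, n = 4 per group). The cartilage DMM pools at 6 weeks lie between 7.13 and 7.44, above all other arrays, and the bone groups overlap.

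The mean of 7.32 ± 0.16 in DMM cartilage at 6 weeks, against 5.84 ± 0.07 in sham cartilage at 6 weeks (SD, n = 3 each), gave a difference of 1.47 ± 0.14 (SE) on the log2 scale, or 2.78-fold. That sham level lay below the array medians of 6.26 to 6.32, and no label states the background correction, so the fold carries that limit. At 1 week the means were 6.46 ± 0.10 in DMM and 6.04 ± 0.27 in sham cartilage (SD, n = 3 each), a difference of 0.41 ± 0.14 (SE), or 1.33-fold. The DMM difference was thus 1.06 ± 0.19 (SE) larger at 6 weeks than at 1 week. Most of that change was in the DMM arm: 6 weeks minus 1 week was 0.86 ± 0.14 (SE) in DMM cartilage, or 1.81-fold, and -0.20 ± 0.14 (SE) in sham cartilage. Leaving out each cartilage array in turn gave a 6-week difference of 1.41 to 1.57, a 1-week difference of 0.29 to 0.55 and a change of 0.92 to 1.19. The 1-week difference moved to 0.55 without sham replicate 3 of that week and to 0.29 without sham replicate 2. Leaving out the same pools moved the change as well, to 0.92 and 1.19 in that order.

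**Figure D2:**
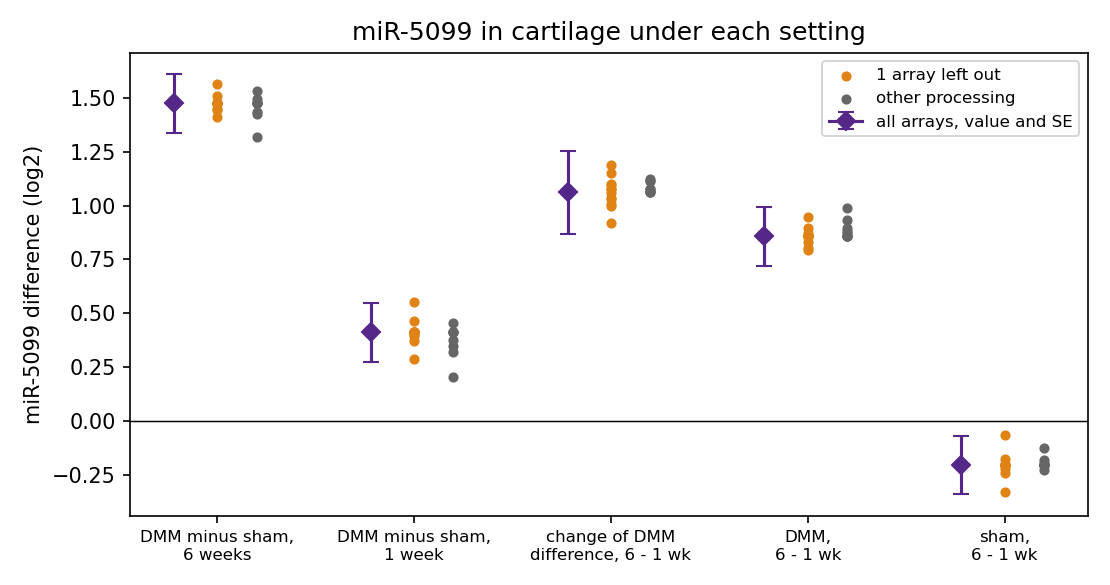
Differences of miR-5099 in cartilage on the log2 scale (vertical axis) for 5 comparisons (horizontal axis), as the value from all arrays with its standard error (diamonds), with each array left out in turn (orange points) and under the other processing settings (grey points). The 6-week DMM difference lies between 1.32 and 1.57 at every point, while the 1-week difference spreads from 0.21 to 0.55.

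In subchondral bone the DMM groups of miR-5099 were not apart from the sham groups. Per the labels each mouse gave cartilage and bone, but no cartilage pool is tied to a mouse. At 6 weeks the 4 DMM mice had 5.77, 5.62, 6.39 and 5.92 (mice 5, 6, 21 and 25), against 6.01, 6.62, 6.35 and 5.89 in the sham mice (mice 10, 12, 22 and 26). At 1 week the DMM mice had 6.20, 6.14, 6.23 and 6.10 (mice 67, 77, 85 and 93), against 6.14, 6.24, 6.31 and 6.33 in the sham mice (mice 66, 68, 86 and 96). The groups overlapped at both weeks. DMM minus sham was -0.29 ± 0.18 (SE) at 6 weeks and -0.08 ± 0.18 (SE) at 1 week, a change of -0.21 ± 0.26 (SE). The DMM difference in cartilage exceeded that in bone by 1.77 ± 0.23 (SE) at 6 weeks and by 0.50 ± 0.23 (SE) at 1 week.

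Over all 8 groups the mean level was highest in DMM cartilage at 6 weeks (7.32) and next in DMM cartilage at 1 week (6.46). Then came sham bone at 1 week (6.25), sham bone at 6 weeks (6.22), DMM bone at 1 week (6.17), sham cartilage at 1 week (6.04), DMM bone at 6 weeks (5.92) and sham cartilage at 6 weeks (5.84). The first group stood clear of the second, and neighbours from sham bone at 1 week downwards overlapped in their array values. The labels do not state a common normalization of cartilage and bone, so the order across tissues carries that limit. The typical SD of miR-5099 within a group was 0.17 in cartilage, and 45.7% of the cartilage rows had a smaller one. In bone its SD was 0.24, and 26.3% of the bone rows had a smaller one.

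Many other miRNAs differed in the same cartilage, and miR-5099 was set against all of them. limma's test with Benjamini-Hochberg adjustment over all 438 rows, at an adjusted p below 0.05, called 74 rows at 6 weeks (16.9%; 42 higher and 32 lower in DMM) and 122 rows at 1 week (27.9%; 69 higher and 53 lower in DMM). By size, miR-5099 had the second largest DMM difference of the 438 rows at 6 weeks, place 2 from the top, but only place 64 at 1 week. For the change of the DMM difference between the weeks it held place 1, and the median over all rows was -0.04. In that comparison limma called 0 rows (0%), and 13 had an unadjusted p below 0.05. Within DMM cartilage 21 rows (4.79%) were called between 6 and 1 weeks, 10 higher and 11 lower at 6 weeks, and miR-5099 held place 2. Within sham cartilage 1 row (0.228%) was called, miR-1957b, 0.56 ± 0.09 (SE) higher at 6 weeks with a limma adjusted p of 0.0269, which is named after its value was seen. In bone limma called 0 of 490 rows (0%) in each of the same 5 comparisons. There an unadjusted p below 0.05 was found for 2 rows in DMM against sham at 6 weeks, 3 rows at 1 week and 1 row in the change between them. Within DMM bone 95 rows had one between 6 and 1 weeks, and within sham bone 54 rows.

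A list of miRNAs with large DMM differences in cartilage had another course. Its 9 members, drawn from earlier results of these arrays, were miR-6931-5p, miR-1187, miR-574-5p, miR-3082-5p, miR-468-3p, miR-32-3p, miR-466i-5p, miR-669n and miR-6348. Since the list was picked on its rise, its calls are a description: 9 of 9 were called higher at both weeks, beside 9.59% of all rows called higher at 6 weeks and 15.8% at 1 week. Their DMM differences had a median of 1.30 (0.98 to 1.76) at 6 weeks and of 1.81 (1.14 to 2.59) at 1 week. In all 9 the difference was smaller at 6 weeks than at 1 week, by a median of -0.46 (-0.83 to -0.15), and limma called none of these 9 changes. miR-5099, chosen for its late rise, moved the other way, by 1.06. Both choices were made on these same arrays, so the contrast is a description too. The listed miRNAs also move together from array to array, so they are not independent observations.

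Single arrays show the contrast. miR-6931-5p, the member with the largest difference, had 10.2, 10.0 and 9.61 in DMM cartilage at 6 weeks, against 8.09, 8.60 and 7.88 in sham cartilage at 6 weeks. At 1 week it had 10.9, 11.5 and 11.0 in DMM cartilage, against 8.42, 8.69 and 8.52 in sham cartilage. DMM and sham were apart at both weeks, and the 1-week DMM pools were the highest of all 12. Its DMM difference was 1.76 ± 0.21 at 6 weeks (limma adjusted p = 0.000409) and 2.59 ± 0.21 at 1 week (limma adjusted p = 1.23e-05).

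**Figure D3:**
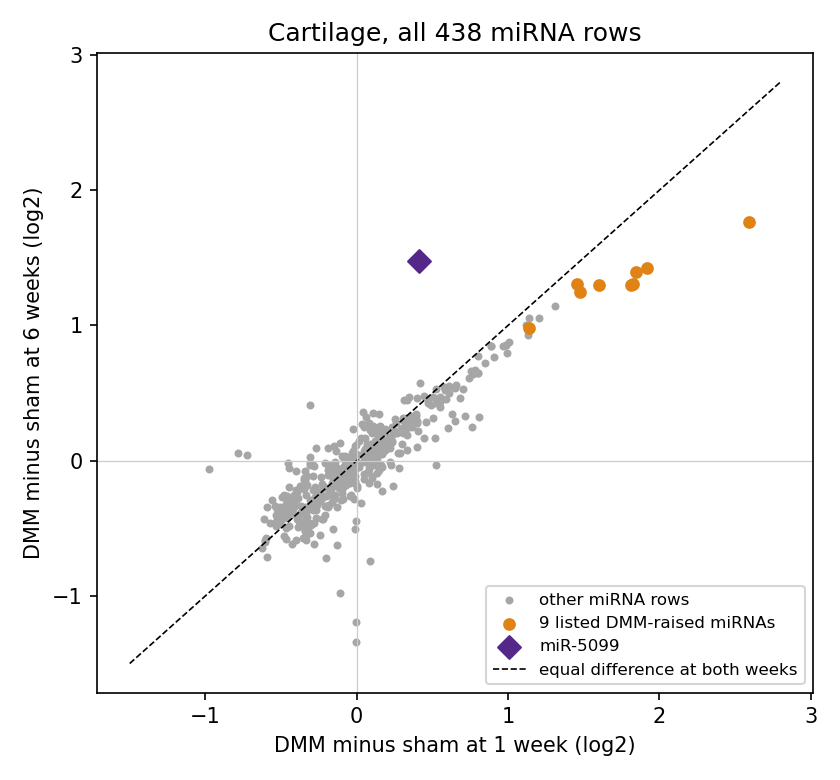
DMM minus sham difference (log2) of each of the 438 cartilage rows at 1 week (horizontal axis) and at 6 weeks (vertical axis), with miR-5099 as a diamond, the 9 listed DMM-raised miRNAs in orange, other rows in grey and equality as a dashed line. miR-5099 lies well above the line at 1.47 against 0.41, and the 9 listed miRNAs lie below it.

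The sequences of the listed miRNAs are shown because most of them share a repeat that the Mir5099 hairpin lacks. They are RefSeq mature forms (GRCm38.p6), with each run that holds the letters GUGUGU in capitals.
miR-574-5p: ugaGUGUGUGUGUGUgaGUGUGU
miR-1187: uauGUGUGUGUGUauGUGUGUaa
miR-3082-5p: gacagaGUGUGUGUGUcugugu
miR-32-3p: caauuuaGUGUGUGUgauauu
miR-669n: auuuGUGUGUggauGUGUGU
miR-6348: ucagccuuuauaagGUGUGUGU
miR-6931-5p: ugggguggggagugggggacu
GUGUGU, searched on the miRNA strand, was present in 6 of the 7 listed miRNAs with a RefSeq sequence, and in 13 of the 466 rows with one (2.79%). miR-6931-5p, the exception, is a run of mostly G. The complementary letters ACACAC were in 6 of the 466 rows (1.29%). The Mir5099 hairpin held neither. In cartilage the 10 measured rows with GUGUGU had a median DMM difference of 1.15 at 6 weeks (9 called higher) and of 1.30 at 1 week (10 called higher). Of these 10 rows 6 are listed miRNAs, picked on their rise. The other 4 had medians of 0.69 at 6 weeks (3 called higher) and 0.76 at 1 week (4 called higher). The 354 measured rows without it had medians of -0.05 at 6 weeks (17 called higher and 27 lower) and -0.04 at 1 week (38 called higher and 45 lower). No row's mature sequence shared a run of 9 or more bases with the Mir5099 hairpin, and the longest shared run was 8 bases, in 5 rows.

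The listed miRNAs were also set beside miR-5099 from pool to pool. Each value was taken as a deviation from its group mean, so that operation and week no longer entered, and all deviations of an array share its labelling and hybridization. The listed miRNAs moved together, with a median Pearson's r among themselves of 0.91 over the 12 cartilage arrays and 0.96 over the 16 bone arrays. Their r with miR-5099 had a median of 0.09 in cartilage (-0.20 to 0.25), where the median over all rows was also 0.09. Without the 2 arrays farthest from the median of miR-5099, over 10 cartilage arrays, it had a median of 0.33 (-0.10 to 0.41), so the value moved with those 2 pools. In bone it had a median of 0.39 (0.33 to 0.52), with a median over all rows of 0.07. These are descriptions of 12 and 16 arrays.

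**Figure D4:**
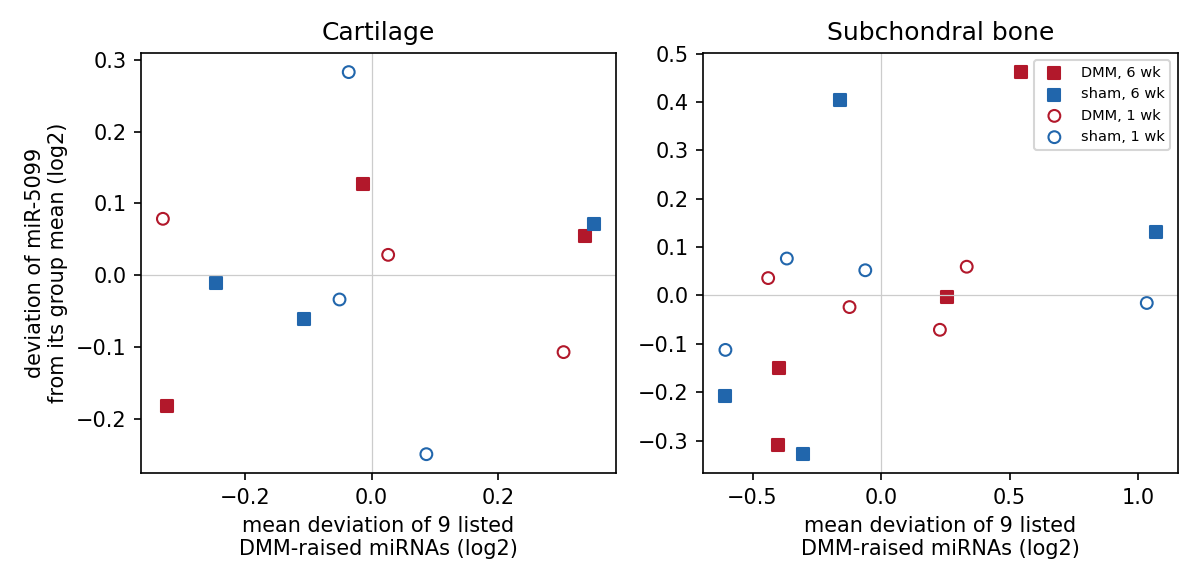
Deviation of miR-5099 from its group mean (vertical axis, log2) against the mean deviation of the 9 listed DMM-raised miRNAs (horizontal axis, log2), one point per array, in cartilage (left, 12 arrays) and bone (right, 16 arrays), with colour for operation and filled squares for 6 weeks. Over all points r is 0.06 in cartilage and 0.43 in bone.

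A further view of the same question came from the strongest shared pattern of the bone arrays. Each cartilage array was scored on the first principal component of the bone deviations, over rows in both tissues and without miR-5099, and the score was added to the fit, a setting chosen after the data were seen. The score followed the mean of the 9 listed miRNAs closely over the 12 cartilage arrays (r = 0.90). With it in the fit, limma called 0 rows for DMM against sham at 6 weeks, where 20 had an unadjusted p below 0.05, and 0 at 1 week, where 10 had. The difference of miR-5099 was then 1.32 ± 0.24 (SE) at 6 weeks and 0.21 at 1 week. The score differs between the operations itself, so this fit does not separate it from the surgery.

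The rows most like miR-5099 over the 12 cartilage arrays were named by the highest Pearson's r of their values. In order they were miR-3098-3p (0.81), miR-31-5p (0.78), miR-346-5p (0.77), miR-7118-5p (0.74), miR-467c-5p (0.74), miR-1897-5p (0.74), miR-466f-5p (0.74) and miR-195a-3p (0.73). Spearman's rho for them ran from 0.69 to 0.89. Over the 9 arrays outside the 6-week DMM group, r was 0.72 to 0.83 for 7 of them and 0.16 for miR-1897-5p, so the likeness of that row rested on the 3 DMM pools at 6 weeks. The 9 listed miRNAs held places from 15 to 67 among 437 rows, with unlisted rows between them. Their r was 0.57 to 0.70 over the 12 arrays and 0.68 to 0.83 over the same 9.

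The DMM difference of these 8 rows was about as large at 6 weeks as at 1 week. Their differences had a median of 0.72 at 6 weeks (0.32 to 0.88) and of 0.78 at 1 week (0.31 to 1.00). limma called 7 of 8 higher at 6 weeks, beside 9.59% of all rows, and 8 of 8 at 1 week, beside 15.8%. miR-1897-5p, called at 1 week with a limma adjusted p of 0.0499, was also called under 1 of 8 other settings and with 2 of 12 arrays left out. The choice by likeness to a DMM pattern favours such calls, and they support nothing further. The change of the difference had a median of -0.03 over the 8 (-0.13 to 0.06), against 1.06 for miR-5099.

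miR-31-5p shows what this likeness consists of. It had 7.13, 6.96 and 6.77 in DMM cartilage at 6 weeks, against 6.25, 6.26 and 5.81 in sham cartilage at 6 weeks. At 1 week it had 7.33, 6.57 and 6.81 in DMM cartilage, against 6.26, 5.67 and 6.12 in sham cartilage. Its DMM pools lay above its sham pools at both weeks, at about the same distance.

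miR-3098-3p, the row with the highest r, had 5.87, 5.87 and 5.78 in DMM cartilage at 6 weeks, against 5.57, 5.27 and 5.25 in sham cartilage at 6 weeks. At 1 week it had 5.69, 5.81 and 5.86 in DMM cartilage, against 5.40, 5.30 and 5.32 in sham cartilage. Again the operations were apart at both weeks, by 0.48 ± 0.11 (limma adjusted p = 0.0116) at 6 weeks and 0.44 ± 0.11 (limma adjusted p = 0.0101) at 1 week. The mature sequences of 5 of the 8 rows were in the RefSeq table, and none of them held GUGUGU. They are shown to set beside the repeat-bearing forms above.
miR-3098-3p: uucugcugccugccuuuagga
miR-31-5p: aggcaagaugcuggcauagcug
miR-346-5p: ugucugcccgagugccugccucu
miR-7118-5p: uggggaaggcgggagagggaac
miR-195a-3p: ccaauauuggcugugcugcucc

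Within groups, other rows followed miR-5099. In cartilage the highest r over the 12 deviations was for miR-1224-5p (0.79), then miR-27a-3p (0.75), miR-8119 (0.73), miR-2861 (0.69) and miR-29a-3p (0.69). miR-27a-3p restrains fat cell differentiation, and miR-29a-3p represses collagen and other matrix transcripts. Without the 2 arrays farthest from the median, r was 0.86 for miR-1224-5p, 0.59 for miR-27a-3p, 0.70 for miR-8119, 0.78 for miR-2861 and 0.46 for miR-29a-3p. The lowest r were for miR-7050-5p (-0.70), miR-5107-5p (-0.70) and miR-202-3p (-0.67), and these were only -0.33, -0.36 and -0.35 without the same 2 arrays. Of these 8 rows limma called 0 at 6 weeks and 1 at 1 week, miR-1224-5p, which was higher in DMM. Shares this small lie at or below the background of calls.

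In bone the rows that followed miR-5099 within groups were miR-3473e (r = 0.78 over 16 arrays), miR-3473a (0.73), miR-188-5p (0.71), miR-3473b (0.69) and miR-690 (0.64). Without the 2 farthest arrays r was 0.66 for miR-3473e, 0.52 for miR-3473a, 0.70 for miR-188-5p, 0.35 for miR-3473b and 0.42 for miR-690. The lowest were miR-15b-5p (-0.77), of the miR-15/16 family that restrains the cell cycle, miR-7666-3p (-0.71) and miR-139-5p (-0.69). Those were -0.56, -0.57 and -0.58 without the 2 arrays. Mouse 12, a sham mouse at 6 weeks with the highest bone value of miR-5099 (6.62), also had the highest miR-3473e (7.76) and miR-3473a (9.60) of the 16 bone arrays. Both rows were named for their r over these same arrays, so the match is part of that r and no separate observation.

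The 3 rows of the miR-3473 family are shown because they share a long stretch of letters. They hold in common a run of 14 bases, in capitals (RefSeq, GRCm38.p6), and binding of one RNA to another's probe was not tested.
miR-3473e: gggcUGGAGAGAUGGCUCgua
miR-3473a: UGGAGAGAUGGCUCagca
miR-3473b: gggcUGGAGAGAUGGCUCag
Their genes are on chromosomes 5, X and 10 in that order. None of the rows named within groups, in either tissue, was among the 8 most like miR-5099 over the cartilage values.

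The change of the DMM difference between the weeks was led by miR-5099, and the rows that came after it were noisier. The largest increases below it were for miR-1a-3p (0.92 ± 0.68, SE), miR-133b-3p (0.84 ± 0.71), miR-133a-3p (0.77 ± 0.61), miR-409-3p (0.72 ± 0.31) and miR-455-3p (0.44 ± 0.25). The first 3 are miRNAs of striated muscle, miR-409-3p belongs to the imprinted Dlk1-Dio3 cluster, and miR-455-3p is a cartilage miRNA from an intron of Col27a1. The largest decreases were for miR-451a (-1.34 ± 0.59), miR-223-3p (-1.19 ± 0.53), miR-142a-3p (-0.87 ± 0.47), miR-6931-5p (-0.83 ± 0.29) and miR-126a-3p (-0.83 ± 0.65). miR-451a marks red cells, miR-223-3p myeloid cells, miR-142a-3p blood cells in general and miR-126a-3p endothelium. limma gave each of these 10 rows an adjusted p of 0.999, and their standard errors were 0.25 to 0.71, against 0.19 for miR-5099.

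miR-1a-3p had 5.53, 5.93 and 7.61 in DMM cartilage at 6 weeks, against 5.81, 7.02 and 6.41 in sham cartilage at 6 weeks. At 1 week it had 5.26, 5.52 and 4.92 in DMM cartilage, against 6.87, 5.83 and 5.92 in sham cartilage. Replicate 3 of the 6-week DMM group was the highest pool for all 3 muscle miRNAs and the lowest of its group for miR-5099. Without that pool the DMM difference of miR-5099 at 6 weeks was 1.57 and the change between weeks was 1.15.

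Blood cell miRNAs were lower in DMM than in sham cartilage at 6 weeks, where 7.31% of all rows were called lower. Of the 4 listed erythroid miRNAs 2 were measured in cartilage, and limma called both lower in DMM at 6 weeks, miR-451a with a difference of -1.34 ± 0.42 (adjusted p = 0.0465) and miR-486a-5p with -0.50 ± 0.14 (adjusted p = 0.0283). Their summed signal, on the log2 scale, was 7.75 to 8.55 in DMM cartilage and 8.50 to 10.2 in sham cartilage at 6 weeks, and 7.58 to 7.99 in DMM and 7.41 to 8.27 in sham cartilage at 1 week. Of the 5 listed leukocyte miRNAs 3 were measured and 2 were called lower at 6 weeks, miR-223-3p (-1.19 ± 0.37, limma adjusted p = 0.0465) and miR-342-3p (-0.57 ± 0.14, limma adjusted p = 0.0172). miR-142a-3p, the third, differed by -0.98 ± 0.33 with a limma adjusted p of 0.0566. The leukocyte sum was 8.00 to 8.52 in DMM and 8.64 to 9.79 in sham cartilage at 6 weeks, and 8.21 to 8.69 in DMM and 8.27 to 8.78 in sham cartilage at 1 week. None of the measured erythroid or leukocyte miRNAs was called at 1 week, when 12.1% of all rows were called lower. Those 6-week calls were fragile: for miR-451a, and likewise for miR-223-3p, the call was kept with 2 of 12 arrays left out and under 3 of 8 other settings, with the same sign throughout. The calls of miR-486a-5p and miR-342-3p were each kept with 8 of 12 arrays left out. Without sham replicate 3 at 6 weeks, the pool highest in blood cell miRNAs, the difference was -0.86 for miR-451a and -0.84 for miR-223-3p.

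Both sums reached their highest values in sham pools at 6 weeks. For the 2 measured erythroid miRNAs, 6 weeks minus 1 week was 0.41 to 1.67 in sham cartilage and 0.06 to 0.33 in DMM cartilage. For the 3 leukocyte miRNAs it was 0.24 to 1.00 in sham cartilage and -0.35 to 0.13 in DMM cartilage. limma called none of these steps. miR-451a had 7.35, 8.35 and 7.67 in DMM cartilage at 6 weeks, against 8.23, 9.07 and 10.1 in sham cartilage at 6 weeks. At 1 week miR-451a had 7.59, 7.61 and 7.17 in DMM cartilage, against 8.00, 7.54 and 6.84 in sham cartilage. Within groups, r of miR-5099 over the 12 arrays was -0.30 with miR-451a and -0.49 with miR-223-3p. The part of blood cells in the difference of miR-5099 was not tested.

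Muscle, endothelial, cartilage and inflammation-induced miRNAs gave 0 or 1 call each. Of the 4 muscle miRNAs only miR-206-3p was called, higher in DMM by 0.53 ± 0.13 at both weeks (limma adjusted p = 0.0166 at 6 weeks and 0.0107 at 1 week), beside 16.9% and 27.9% of all rows called. Its signal was low, 5.13 to 6.14 over the 12 cartilage arrays, where the lowest value on an array was 4.72 to 5.13. The rest of the muscle list did not rise with it, so the call of this 1 row is no measure of muscle. The other muscle miRNAs had differences of -0.06 (miR-1a-3p), 0.05 (miR-133b-3p) and 0.04 (miR-133a-3p) at 6 weeks. At 1 week theirs were -0.97 ± 0.48 for miR-1a-3p, -0.78 ± 0.50 for miR-133b-3p and -0.73 ± 0.43 for miR-133a-3p, with limma adjusted p of 0.145, 0.267 and 0.231 in that order. The muscle sum was 7.61 to 9.27 in DMM and 7.75 to 8.57 in sham cartilage at 6 weeks, and 7.51 to 7.82 in DMM and 7.76 to 8.82 in sham cartilage at 1 week. Of the endothelial pair miR-126a-3p was measured, with a difference of -0.74 ± 0.46 at 6 weeks (limma adjusted p = 0.248). Of the 4 cartilage miRNAs limma called 0 at 6 weeks and 1 at 1 week, miR-455-5p, at -0.40 ± 0.13 (adjusted p = 0.0457), a call that held with 5 of 12 arrays left out. Their sum was 13.6 to 13.9 in DMM and 14.0 to 14.1 in sham cartilage at 6 weeks, a separation in which miR-140-3p itself differed by -0.34 ± 0.11 (limma adjusted p = 0.0558). Of the 5 inflammation-induced miRNAs (miR-21a-5p, miR-146a-5p, miR-146b-5p, miR-155-5p and miR-212-3p) limma called 0 at either week. Their DMM differences ran from -0.22 to 0.65 at 6 weeks and from -0.29 to 0.80 at 1 week. miR-155-5p, induced in activated immune cells, had 5.92, 5.99 and 5.86 in DMM cartilage at 6 weeks, against 5.68, 5.63 and 5.71 in sham cartilage at 6 weeks. At 1 week miR-155-5p had 5.64, 5.43 and 5.45 in DMM cartilage, against 5.40, 5.35 and 5.46 in sham cartilage. Like miR-5099 its 6-week DMM pools were the highest of the 12, but its DMM difference at 6 weeks was 0.25 ± 0.09 (limma adjusted p = 0.0738). Within DMM cartilage miR-155-5p was called higher at 6 weeks than at 1 week, by 0.41 ± 0.09 (limma adjusted p = 0.0295), beside 2.28% of all rows called higher. Within sham cartilage that step was 0.27 ± 0.09 (limma adjusted p = 0.181). The change of the DMM difference of miR-155-5p was 0.14 ± 0.13 (limma adjusted p = 0.999). Its r with miR-5099 was 0.71 over the 12 cartilage arrays, -0.21 over the 9 outside the 6-week DMM group and 0.61 within groups.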

How the data were processed

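miRNA was measured on 28 Agilent 1-colour arrays, 12 of cartilage pools and 16 of bone from single mice. The authors' deposited table holds 569 rows of log2 signals, a unit read from the range of the values, which entered the fits unchanged. limma 3.20.9 is named in the submitters' processing notes. No label states how background was corrected, arrays were normalized or rows were filtered. Groups came from the titles and the source field, and 0 columns of sample values were left unused. A group-means model was fitted per tissue to all its arrays with limma 3.58.1 in R 4.3.3 (labels read with jsonlite 2.0.0), with Benjamini-Hochberg adjustment over all rows and a threshold of 0.05. The fit was tested on simulated data. A p-value thus rests on the spread between pools (cartilage) or mice (bone), and the number of arrays limits the precision. Differences between tissues were the difference of 2 separate fits, with their standard errors combined as independent, although per the labels each mouse gave cartilage and bone.

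Rows named were the 8 with the highest Pearson's r with miR-5099 over the cartilage values, the 5 highest and 3 lowest over deviations from group means in each tissue, the 5 largest changes of the DMM difference in each direction, the 9 listed miRNAs and the marker lists. Members and lists were chosen with earlier results of these data known. A seed comparison planned for miR-5099 was not run, and the search for shared runs of at least 9 bases used its hairpin. Structures were predicted with RNAfold (ViennaRNA 2.7.2). Alternatives were: 75th percentile centring, quantile normalization, a filter at the median level, array weights, a robust prior with a trend, a fit to only the groups compared, the cartilage replicate number as a block, each array left out in turn and, added after the data were seen, 2 covariates: the bone component score and the mean of the 9 listed miRNAs.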

Additional observations from a re-analysis of the deposited data

Results flagged for a closer look

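miR-3473a in bone of DMM mice at 6 weeks had 1 array far from the others: mouse 21 had 8.42, against 7.97, 7.98 and 8.03 in mice 5, 6 and 25. The same mouse had the highest miR-5099 of its group, but miR-3473a was named for following miR-5099 within these groups, so this adds no separate observation. The check was run in each bone group for miR-5099 and the 8 rows named within bone groups. Among the bone groups tested for such a value, those of miR-5099 had none, and chance gives about 1 in 20 groups.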

How the results depend on the processing

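The 6-week cartilage difference of miR-5099 stayed between 1.32 and 1.57 and its change between weeks between 0.92 and 1.19 over all settings. The median filter, the robust prior with a trend, the fit to only the groups compared and the replicate block cannot move either value. The 1-week difference was 0.21 with the bone component score as a covariate. In bone, array weights, whose estimation did not converge, turned the 6-week difference to 0.061 and the change to 0.10. miR-5099 fell below the median filter in bone.

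The cartilage counts moved more. For DMM against sham at 6 weeks (74 rows) they were 40 with the median filter (219 rows tested), 189 with array weights, 29 with only the groups compared, 43 with the replicate block and 0 with the score. With an array left out they ran from 20 without DMM replicate 2 at 6 weeks to 166 without sham replicate 1 at 6 weeks. They were also 44 without DMM replicate 1 at 6 weeks. Leaving out a sham pool of 6 weeks other than replicate 1 gave 27 (replicate 2) and 31 (replicate 3). At 1 week (122 rows) they were 54 with the filter and 0 with the score. With an array left out they ran from 42 without DMM replicate 3 at 1 week to 141, and were 56 without sham replicate 3 at 1 week. For the change between weeks 1 row was called under quantile normalization, the filter and array weights, and 0 to 1 with an array left out. That row was miR-5099 each time. It was chosen for this change, so these calls are no test of it and lend it no support. Within DMM (21 rows) they were 35 with quantile normalization, 34 with centring, 6 with the filter, 32 with array weights, 12 with only the groups compared, 7 with the block, 0 with the score and 6 to 30 with an array left out. Within sham (1 row) they were 68 with array weights, 0 with the filter, the groups compared, the block and the score, and 0 to 9 with an array left out. In bone array weights called 38 rows at 1 week, 54 at 6 weeks, 274 within DMM and 140 within sham. Within sham bone, leaving out an array gave 0 to 5. Fewer rows or arrays enter the filter, the fits to the groups compared and those with an array left out. For the others the cause was not tested.

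The deviations of DMM and sham cartilage arrays with the same week and replicate number correlated at -0.48 to 0.03. Arrays with unlike numbers were not set beside them, so whether replicate numbers pair the samples cannot be told. With the replicate block the differences of miR-5099 kept their values, as they must where each group holds each replicate number once. Those unchanged values therefore say nothing about pairing.

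Of the 8 rows most like miR-5099 over cartilage values, 5 were kept with Spearman's rho, 5 with quantile normalization and 3 to 8 with an array left out. Within cartilage groups 5, 4 and 1 to 6 of 8 were kept, and within bone groups 2, 4 and 1 to 8, with 4 under centring. Of 1033 alternatives for 53 other results, 892 gave the same outcome, 137 lost a call, 4 gained one and 0 changed sign. The results were differences of other named rows and the count of listed miRNAs with a smaller difference at 6 weeks. That count stayed at 7 or more of 9. The changes of the DMM difference among them were not called at first, so they had no call to lose.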
